A study of Mus musculus with 22 samples.

Results

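The 10 genes described here encode enzymes and 1 carrier that move carbon between pyruvate, malate and citrate: Pcx, Me1, Mdh1, Mdh2, Fh1, Cs, Acly, Slc25a1, Glud1 and Idh2. They were chosen by name, each had a probe set that carried its symbol alone, and all 10 were found among the 19938 genes measured. Total RNA was hybridised to 22 Affymetrix Mouse Gene ST arrays, 1 per sample, from RIP1-TAG2 mice, in which the rat insulin promoter drives the SV40 large T antigen in pancreatic beta cells. The labels give this genotype for every group, the normal islets included, and name no further allele, agent or age. Whether the normal islets in fact came from transgenic animals or from littermates without the transgene was not settled by the labels, and every difference from normal islets below is read with that limit. Normal, hyperplastic and angiogenic islets had 3 arrays each, and there were 5 islet tumors, 5 metastasis-like ("met-like") primary tumors and 3 liver metastases. No label says by what criterion a primary tumor was placed among the met-like ones.

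Pancreatic beta cells sense glucose through mitochondria. Pyruvate from glycolysis enters the citrate cycle either as acetyl-CoA, through the pyruvate dehydrogenase complex, or as oxaloacetate, through pyruvate carboxylase (Pcx), and beta cells are known for using both routes heavily. Malate and citrate made in excess leave the mitochondrion and return to pyruvate or acetyl-CoA in the cytosol, which yields NADPH and building blocks for lipids. This return is called pyruvate cycling, and it has been linked to insulin secretion. The liver also expresses pyruvate carboxylase, where the enzyme feeds gluconeogenesis.

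Values are log2 intensities, so that a difference of 1 is a doubling, and levels are compared between groups for the same gene and not between genes. Errors of levels are SDs over arrays, and errors of differences are standard errors of the limma fit of all 22 arrays. A gene was called changed at a Benjamini-Hochberg adjusted p below 0.05 over all 19938 genes. The labels do not say whether samples of a group came from separate animals, so the p-values measure the spread between these samples, which may in part be technical. All 10 genes were bright: their mean levels stood at or above the 82.1 percentile of all gene means. The median of each array lay between 7.08 and 7.22, and no 2 arrays were identical. Some genes of neighbouring pathways named below lay under these medians in a group compared. Such means were 5.85 for Slc16a1 in normal islets and 6.44 for Pck1 in met-like primaries. In islet tumors they were 6.08 for Pdk4, 6.35 for Scd1 and 6.60 for Me3.

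The tissue labels were set against marker genes. Levels of 11 beta cell markers averaged 11.56 in normal islets, 11.41 in hyperplastic islets, 11.21 in angiogenic islets and 10.82 in islet tumors, and then 8.94 in met-like primaries and 9.28 in liver metastases. Insulin 2 (Ins2) stood at 11.01 ± 0.06 (SD, n = 5) in islet tumors and 10.17 ± 0.21 (SD, n = 5) in met-like primaries. Acinar markers of the exocrine pancreas were high throughout, with array means of 8.81 to 12.02 in normal islets, 11.34 to 11.74 in islet tumors, 10.03 to 12.08 in met-like primaries and 9.29 to 10.11 in liver metastases. Hepatocyte markers averaged 10.56 in liver metastases against 7.08 in met-like primaries and 6.64 in islet tumors, and reached 8.93 in 1 angiogenic islet array. Fibroblast markers averaged 9.91 in angiogenic islets, 8.26 in hyperplastic islets and 8.46 in islet tumors. Xist, the RNA of the inactive X chromosome, separated all islets (10.67 to 11.41) from all tumors and metastases (5.33 to 6.46), whereas the Y-linked Eif2s3y was at 4.74 to 8.55 in islets and 7.57 to 9.75 in tumors and metastases. The labels give no sex, so in every comparison of islets with tumors the tissue and the sex of the source animals cannot be told apart. The RNA is of bulk tissue, in which fewer cells of a type and less RNA per cell cannot be told apart.

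Among the 10 genes, 2 differences between neighbouring groups were the largest. The citrate carrier Slc25a1 was lower in hyperplastic than in normal islets, and Pcx was lower in met-like primaries than in islet tumors. No label places 1 of these 2 classes of primary tumor before the other in time. Between hyperplastic and normal islets 1 of 10 genes was lower and none higher, where 8.64% of all genes were called (4.46% higher and 4.17% lower). Between angiogenic and hyperplastic islets none of the 10 was called by limma, against 2.53% of all genes (2.29% higher and 0.246% lower). Of the 10, 1 (Cs) had an unadjusted limma p below 0.05, as did at least 2618 of all 19938 genes. Between islet tumors and angiogenic islets 1 was lower, against 9.54% of all genes (3.09% higher and 6.45% lower). Between islet tumors and normal islets 2 were higher and 5 lower, so that 7 of 10 were called where 29% of all genes were (13% higher and 16.1% lower). Between met-like primaries and normal islets the count was again 2 higher and 5 lower, against 42.8% of all genes (19.5% higher and 23.3% lower). Between met-like primaries and islet tumors 1 was higher and 2 lower, a share of the 10 genes near the 26.5% of all genes (12.3% higher and 14.2% lower). Between liver metastases and met-like primaries 2 were higher, against 15.7% of all genes (7.8% higher and 7.87% lower). The median difference of the 10 genes was -0.17 from normal islets to islet tumors, against -0.01 over all genes, and -0.05 from islet tumors to met-like primaries, against -0.02. Beside the calls between islet tumors and normal islets, 5 of 11 beta cell markers were lower (median -0.49), and 6 of 7 macrophage and 5 of 8 fibroblast markers were higher (medians 0.90 and 0.77). Their part in the values of the 10 genes was not tested. In the same comparison Xist was at 11.14 ± 0.32 (SD, n = 3) in normal islets and 5.98 ± 0.28 (SD, n = 5) in islet tumors. The comparisons share groups (islet tumors enter 3 of them and normal islets 3), so their values stand side by side and are not independent.

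**Figure D1:**
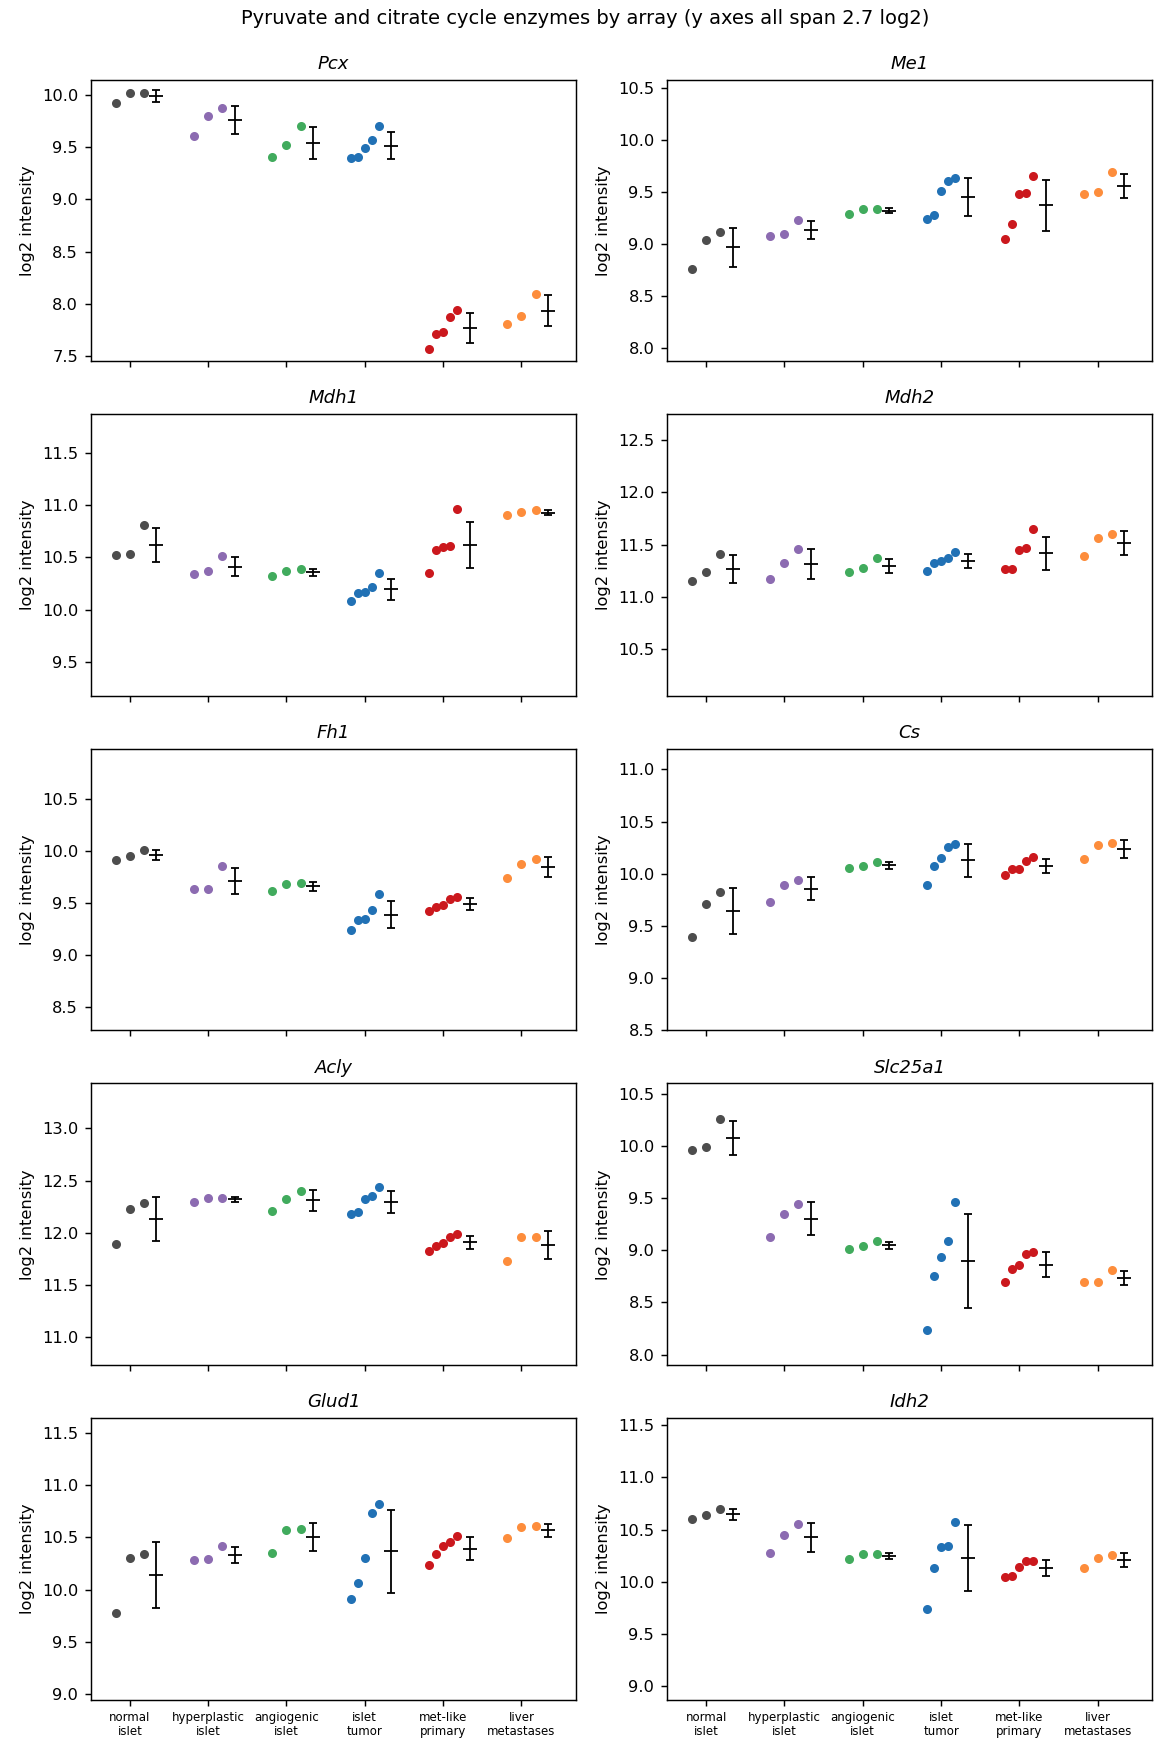
Log2 intensity of each of the 10 genes in each of the 22 arrays, by tissue label, with points for arrays and a bar for the group mean ± SD. Every vertical axis spans 2.7 log2 units, and the gap in Pcx between islet tumors (9.39 to 9.70) and met-like primaries (7.57 to 7.94) is the widest step between neighbouring groups in any panel.

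Pyruvate carboxylase, which makes oxaloacetate from pyruvate and so refills the citrate cycle, differed most between groups among the 10 genes. Pcx stood at 10.02, 9.93 and 10.02 in the 3 normal islet arrays, at 9.87, 9.80 and 9.61 in hyperplastic islets and at 9.52, 9.40 and 9.70 in angiogenic islets. The 5 islet tumors read 9.39, 9.49, 9.40, 9.70 and 9.57. All islets and islet tumors thus stayed at 9.39 or above, with normal islets highest and separate from the rest. In the 5 met-like primaries Pcx read 7.57, 7.73, 7.87, 7.94 and 7.71, and in the 3 liver metastases 7.89, 7.81 and 8.10. Both of these groups lay below every islet and islet tumor array, and they overlapped each other.

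The difference in Pcx between met-like primaries and islet tumors was -1.75 ± 0.09 (SE), a 3.36-fold lower level (limma, adjusted p = 2.99e-12). It was the rank 70 decrease of all 19938 genes by size, and 1.02% of genes differed more in either direction. Within the 3 title prefixes that the tumors of both classes carry (I, II and III, which the labels do not explain), the difference was -1.82, -1.64 and -1.82. Against normal islets the met-like primaries were 4.68-fold lower in Pcx (-2.23 ± 0.10, adjusted p = 6.25e-13), and islet tumors were lower by a smaller step (-0.48 ± 0.10, adjusted p = 0.000714). Neither step from normal to hyperplastic islets (-0.23 ± 0.11, adjusted p = 0.232) nor from hyperplastic to angiogenic islets (-0.22 ± 0.11, adjusted p = 0.400) was called. Liver metastases differed from met-like primaries by 0.17 ± 0.10 (adjusted p = 0.294), with overlapping arrays. Hepatocyte markers averaged 10.56 in the liver metastases and 7.08 in the met-like primaries, and liver RNA and tumor RNA cannot be told apart in the Pcx level of the metastases.

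The lower level of Pcx in met-like primaries went with lower levels of the beta cell list. All 11 of 11 beta cell markers were lower in met-like primaries than in islet tumors, with a median difference of -1.68, and the list's array means were 10.62 to 11.06 in islet tumors and 8.54 to 9.18 in met-like primaries. For Ins2 the lowest met-like primary read 9.87, against 10.93 for the lowest islet tumor. Endothelial markers were lower too (6 of 8, median -0.83). The part of either cell type in the lower level of Pcx was not tested.

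Among all genes, those whose levels ran most like Pcx over the 22 arrays were Pdx1 (Pearson r = 0.990), a transcription factor of pancreas and beta cells, Mnx1 (r = 0.989), another homeobox factor of beta cells, and Desi1 (r = 0.988). With each group's mean removed, r over the 22 arrays was 0.815 for Pdx1, 0.764 for Mnx1 and 0.632 for Desi1. The points share arrays and the step between groups, so these values are a description and carry no test. Pdx1 stood at 9.86 ± 0.19 (SD, n = 5) in islet tumors and 7.11 ± 0.25 (SD, n = 5) in met-like primaries.

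**Figure D2:**
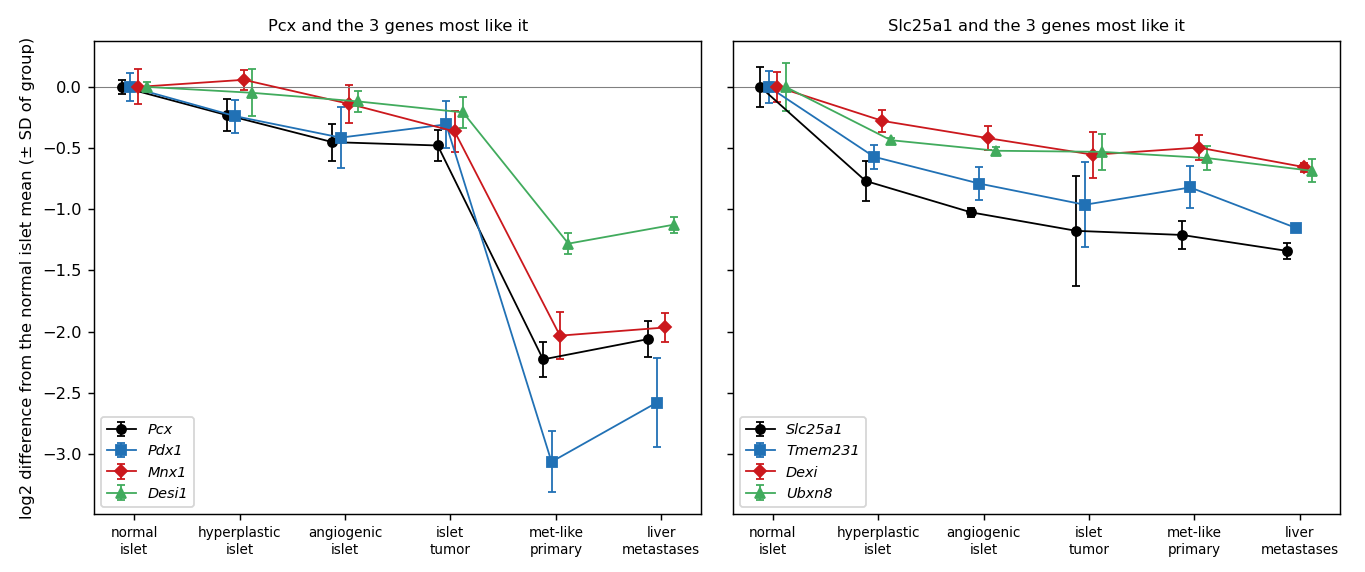
Group means of Pcx and Slc25a1 and of the 3 genes most like each, as log2 differences from their normal islet mean, with bars for the SD of the group. The Pcx panel shows a shared step between islet tumors and met-like primaries, whereas the step of Slc25a1 lies between normal and hyperplastic islets.

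Pyruvate's other route into the cycle runs through the pyruvate dehydrogenase complex, of which Pdha1 encodes the catalytic alpha subunit. Pdha1 stood at 9.67 ± 0.21 (SD, n = 5) in islet tumors and 9.83 ± 0.10 (SD, n = 5) in met-like primaries, a difference that was not called. Taken array by array, Pcx minus Pdha1 ranged from -0.37 to 0.10 in islet tumors and from -2.19 to -1.83 in met-like primaries, with no overlap. This balance therefore differed by -1.90 between the classes (two-sided exact permutation test, p = 0.00794, the smallest that 5 against 5 arrays can give). Its adjusted p over the 14 such tests was 0.0556. With these group sizes no such test could fall below 0.05 after adjustment, whatever the values, so that outcome was fixed in advance. It differed by -1.88 between met-like primaries and normal islets (exact p = 0.0357, the smallest possible for 5 against 3, adjusted p = 0.10). From normal islets to islet tumors the balance differed by 0.028 (exact p = 0.821), as Pcx and Pdha1 were lower by like amounts (-0.48 and -0.51). A difference of 2 probe sets within an array shows unequal change between groups, and its sign says nothing of which transcript is the more abundant.

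Slc25a1 encodes the mitochondrial citrate carrier, which exports citrate to the cytosol in exchange for malate. Its 3 normal islet arrays read 9.99, 10.26 and 9.97. Hyperplastic islets read 9.34, 9.44 and 9.13, and angiogenic islets 9.01, 9.05 and 9.08, so that the 3 islet classes did not overlap. Islet tumors were spread widely, at 8.24, 9.09, 9.47, 8.75 and 8.93. The met-like primaries read 8.98, 8.82, 8.86, 8.96 and 8.69, and the liver metastases 8.81, 8.69 and 8.70. Every array other than the normal islets thus lay below every normal islet array, and the islet tumors, met-like primaries and liver metastases overlapped each other.

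Slc25a1 was 1.70-fold lower in hyperplastic than in normal islets (-0.77 ± 0.19, limma adjusted p = 0.0105), 2.26-fold lower in islet tumors (-1.18 ± 0.17, adjusted p = 1.29e-05) and 2.31-fold lower in met-like primaries (-1.21 ± 0.17, adjusted p = 3.87e-06). Between hyperplastic and normal islets 3.15% of all genes differed more. That first call was lost without Normal2006 (adjusted p = 0.0659) and without Hyperplastic2007 (adjusted p = 0.0634), at differences of -0.68 in both cases. No other difference between neighbouring groups was called. Slc25a1 differed by -0.26 ± 0.19 from hyperplastic to angiogenic islets and by -0.15 ± 0.17 from angiogenic islets to islet tumors. It differed by -0.033 ± 0.14 between the tumor classes and by -0.13 ± 0.17 from met-like primaries to liver metastases. Genes most like Slc25a1 over the 22 arrays were Tmem231 (r = 0.941), a protein of the ciliary transition zone, Dexi (r = 0.939) and Ubxn8 (r = 0.933). Their r with group means removed was 0.810, 0.794 and 0.720.

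The windows of 250 bases before the listed transcription starts of Pcx and Slc25a1 are printed. These 2 genes had the widest span of group means (2.23 and 1.34 log2), and their widest steps lay between different groups. They come from RefSeq on GRCm38.p6. RefSeq lists 2 starts for Pcx, 83847 bases apart, and a probe set for the whole gene does not tell them apart. Capitals mark the GC box (GGGCGG), the CCAAT box (CCAAT) and the palindromic E-box (CACGTG), searched on both strands, so that a match to the opposite strand appears as CCGCCC or ATTGG.
Pcx, first listed start, chr19:4510222-4510471, plus strand: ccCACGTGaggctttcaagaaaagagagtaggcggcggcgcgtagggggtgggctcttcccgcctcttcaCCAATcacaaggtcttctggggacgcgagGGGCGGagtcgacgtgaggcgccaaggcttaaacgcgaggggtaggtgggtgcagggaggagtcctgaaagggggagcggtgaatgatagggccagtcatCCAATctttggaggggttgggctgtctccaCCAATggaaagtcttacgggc
Pcx, second listed start, chr19:4594069-4594318, plus strand: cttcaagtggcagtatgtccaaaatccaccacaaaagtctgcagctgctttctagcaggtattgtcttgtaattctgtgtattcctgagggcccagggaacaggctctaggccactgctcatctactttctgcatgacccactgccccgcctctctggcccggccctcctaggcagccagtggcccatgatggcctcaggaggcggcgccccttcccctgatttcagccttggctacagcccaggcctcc
Slc25a1, chr16:17928220-17928469, minus strand: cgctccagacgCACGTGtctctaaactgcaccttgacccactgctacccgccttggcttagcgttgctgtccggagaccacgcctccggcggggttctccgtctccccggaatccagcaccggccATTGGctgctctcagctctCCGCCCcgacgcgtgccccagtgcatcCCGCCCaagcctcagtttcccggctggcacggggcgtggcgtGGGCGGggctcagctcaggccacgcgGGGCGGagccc
The first Pcx window held 1 GC box, 3 CCAAT boxes and 1 E-box, and the second held none of these. The Slc25a1 window held 4 GC boxes, 1 CCAAT box and 1 E-box. Among all 10 genes (12 windows), a GC box occurred in 10 windows, at least 1 for each gene, against 32.7% of all 32851 windows. A CCAAT box occurred in 7 windows against 33.8%, and an E-box in 2, those shown, against 6.02%. Neither a sterol regulatory element (TCACNCCAC, in 1.05% of all windows) nor an NRF1 element (its palindrome, in 0.782%) was found in the 12 windows. The windows of these genes were 46.0% to 82.0% G or C, against a median of 52.4%, and a GC-rich motif is found more readily in such sequence. A match is a string of letters, and whether any factor binds there was not measured.

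Acly, ATP citrate lyase, splits the exported citrate into acetyl-CoA for lipid synthesis and oxaloacetate. Normal islets read 12.28, 11.89 and 12.23, hyperplastic islets 12.34, 12.29 and 12.33, and angiogenic islets 12.20, 12.33 and 12.40. Islet tumors read 12.43, 12.20, 12.18, 12.32 and 12.35. Apart from 1 low normal islet array (Normal2006), these 4 groups lay in a band from 12.18 to 12.43. Met-like primaries read 11.95, 11.88, 11.83, 11.90 and 11.98, and liver metastases 11.96, 11.96 and 11.73, all below every islet tumor.

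Acly was 1.31-fold lower in met-like primaries than in islet tumors (-0.39 ± 0.08, limma adjusted p = 0.000448), and the difference was -0.48, -0.34 and -0.40 within the prefixes I, II and III. Against normal islets the difference of -0.23 ± 0.09 was called (adjusted p = 0.0412) although the arrays overlapped. That call was lost without NormalI-93 (adjusted p = 0.233), Normal2007 (0.172), II-648-MLP (0.0697), II-6413-MLP (0.0807) or III-8016-MLP (0.0614). From normal islets to islet tumors Acly differed by 0.16 ± 0.09 and was not called (adjusted p = 0.186).

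The cycle's own enzymes moved by smaller amounts and in both directions. Cs, citrate synthase, joins acetyl-CoA and oxaloacetate. Its arrays read 9.83, 9.40 and 9.71 in normal islets, 9.94, 9.90 and 9.73 in hyperplastic islets and 10.08, 10.11 and 10.05 in angiogenic islets. Islet tumors read 9.89, 10.28, 10.15, 10.26 and 10.07, met-like primaries 10.04, 9.99, 10.05, 10.16 and 10.13, and liver metastases 10.28, 10.30 and 10.14. Normal islets were lowest and overlapped with no group other than the hyperplastic islets. Cs was 1.40-fold higher in islet tumors than in normal islets (0.49 ± 0.10, limma adjusted p = 0.000452) and 1.35-fold higher in met-like primaries (0.43 ± 0.10, adjusted p = 0.000837). No other comparison called it.

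Fh1, fumarate hydratase, turns fumarate into malate and is known as a tumor suppressor in hereditary kidney and smooth muscle tumors. Normal islets read 9.95, 10.01 and 9.92, hyperplastic islets 9.64, 9.85 and 9.64, and angiogenic islets 9.69, 9.69 and 9.61. Islet tumors read 9.35, 9.43, 9.25, 9.58 and 9.34, met-like primaries 9.54, 9.46, 9.42, 9.48 and 9.56, and liver metastases 9.74, 9.92 and 9.87. Every islet array lay above every primary tumor array of either class, and the liver metastases lay back among the islets.

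Fh1 was 1.48-fold lower in islet tumors than in normal islets (-0.57 ± 0.08, limma adjusted p = 6.05e-06) and 1.38-fold lower in met-like primaries (-0.47 ± 0.08, adjusted p = 3.16e-05). From angiogenic islets to islet tumors it fell by 0.27 on the log2 scale (SE 0.08, adjusted p = 0.0268). This last call was lost without AngiogenicI-93 (adjusted p = 0.131), Angiogenic2006 (0.0965) or II-6415-tumor (0.0620), and in a fit of only the 8 arrays compared (0.125). Hepatocyte and fibroblast markers were also lower in islet tumors than in angiogenic islets (medians -1.20 and -1.51), as were 6 of 7 lymphocyte and 4 of 8 endothelial markers (medians -1.58 and -0.59). With the hepatocyte mean of each array as a covariate Fh1 differed by -0.29 ± 0.13 (adjusted p = 0.245), a difference as large with a wider error. The hepatocyte means did not overlap (7.11 to 8.93 in angiogenic islets and 6.53 to 6.79 in islet tumors). Hepatocyte content and group can thus barely be separated by this fit, and the part of the other cell types was not tested. From normal to hyperplastic islets the difference was -0.25 ± 0.09 (adjusted p = 0.0762), and it was called without Hyperplastic2006 (-0.32, adjusted p = 0.0361). In liver metastases Fh1 was 1.28-fold higher than in met-like primaries (0.35 ± 0.08, adjusted p = 0.00288), with no overlap.

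Idh2, the mitochondrial NADP-dependent isocitrate dehydrogenase, supplies NADPH inside the mitochondrion. It read 10.70, 10.64 and 10.60 in normal islets, 10.45, 10.55 and 10.27 in hyperplastic islets and 10.27, 10.22 and 10.26 in angiogenic islets. Islet tumors spread over 10.13, 10.57, 9.74, 10.33 and 10.35, while met-like primaries read 10.20, 10.20, 10.05, 10.04 and 10.14, and liver metastases 10.26, 10.23 and 10.13. The normal islets were above all other arrays. Idh2 was 1.34-fold lower in islet tumors (-0.42 ± 0.12, limma adjusted p = 0.0111) and 1.43-fold lower in met-like primaries (-0.52 ± 0.12, adjusted p = 0.00134) than in normal islets. The first of these was not called when only the 8 arrays of the 2 groups were fitted (adjusted p = 0.0847). Between the tumor classes Idh2 differed by -0.10 ± 0.10 and was not called, but without II-6415-tumor, the lowest islet tumor, the difference was -0.22 (adjusted p = 0.0440).

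Mdh2, the mitochondrial malate dehydrogenase that closes the cycle, varied least. Its group means ran from 11.27 ± 0.13 (SD, n = 3) in normal islets to 11.52 ± 0.11 (SD, n = 3) in liver metastases, each group overlapped its neighbour in the order of levels, and no comparison called it. Glud1, glutamate dehydrogenase, feeds glutamate carbon into the cycle as 2-oxoglutarate and is a known control point of amino acid-stimulated insulin secretion. No comparison called it either, and its group means ran from 10.14 ± 0.32 (SD, n = 3) in normal islets to 10.57 ± 0.06 (SD, n = 3) in liver metastases. Islet tumors had the widest spread in Glud1, from 9.91 to 10.82 (SD 0.40), against 10.23 to 10.51 (SD 0.11) in met-like primaries. The difference between the classes was 0.11, 0.50 and -0.49 within the prefixes I, II and III, so that the pooled value of 0.025 ± 0.14 averages differences of both signs.

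The cytosolic enzymes Mdh1 and Me1 handle the malate that leaves the mitochondrion. Mdh1, the cytosolic malate dehydrogenase of the malate-aspartate shuttle, read 10.52, 10.81 and 10.53 in normal islets, 10.34, 10.51 and 10.37 in hyperplastic islets and 10.37, 10.39 and 10.32 in angiogenic islets. Islet tumors read 10.16, 10.15, 10.08, 10.35 and 10.21, met-like primaries 10.60, 10.61, 10.35, 10.96 and 10.57, and liver metastases 10.91, 10.93 and 10.95. Islet tumors were the lowest group, met-like primaries were at the level of normal islets, and liver metastases were highest on average.

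Mdh1 was 1.34-fold lower in islet tumors than in normal islets (-0.43 ± 0.10, limma adjusted p = 0.00269) and 1.34-fold higher in met-like primaries than in islet tumors (0.43 ± 0.09, adjusted p = 0.000805), where the highest islet tumor overlapped the lowest met-like primary. The second difference was 0.44, 0.36 and 0.48 within the prefixes I, II and III. Met-like primaries and normal islets differed by -0.0013 ± 0.10 (adjusted p = 0.995). The rise in liver metastases over met-like primaries (0.31 ± 0.10, adjusted p = 0.0416) was lost when any of 7 of the 8 arrays was left out (adjusted p = 0.0672 to 0.128) and held only without III-8016-MLP. With the title code as a replicate block it was also lost (0.33, adjusted p = 0.0595).

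Mdh1 minus Mdh2, taken within each array, ranged from -0.71 to -0.60 in normal islets, -1.26 to -1.08 in islet tumors, -0.92 to -0.65 in met-like primaries and -0.67 to -0.44 in liver metastases. The cytosolic enzyme was thus lowest relative to its mitochondrial counterpart in islet tumors, whose arrays overlapped no other group. The balance differed by 0.35 between met-like primaries and islet tumors (exact permutation p = 0.00794, the smallest possible, adjusted p = 0.0556) and by -0.50 between islet tumors and normal islets (exact p = 0.0357, the smallest possible, adjusted p = 0.10). Neither passed 0.05 after adjustment, nor did any of the 14 such tests, but at these group sizes none could have done so. Before adjustment, 3 against 3 arrays cannot give less than 0.10.

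**Figure D3:**
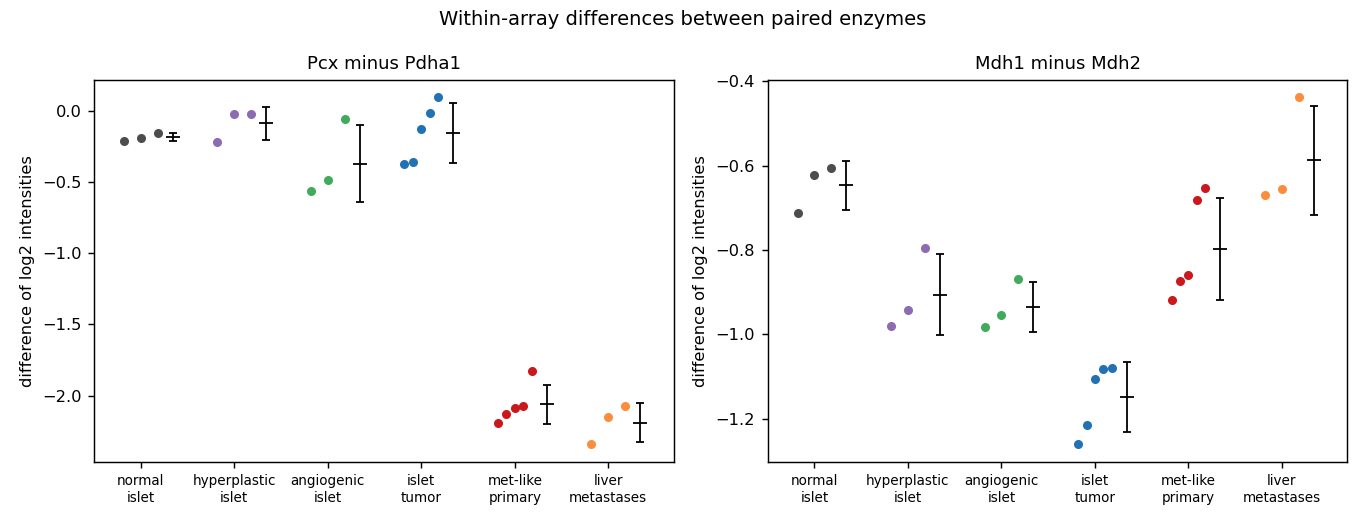
Difference of log2 intensities within each array for Pcx minus Pdha1 (left) and Mdh1 minus Mdh2 (right), with points for arrays and a bar for the group mean ± SD. In the left panel the met-like primaries (-2.19 to -1.83) and liver metastases (-2.34 to -2.08) lie apart from all islets and islet tumors, and in the right panel the islet tumors (-1.26 to -1.08) lie lowest.

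Me1, the cytosolic malic enzyme, makes pyruvate and NADPH from malate. Normal islets read 9.04, 8.76 and 9.12, hyperplastic islets 9.08, 9.23 and 9.09, and angiogenic islets 9.34, 9.29 and 9.34. Islet tumors read 9.51, 9.24, 9.27, 9.63 and 9.60, met-like primaries 9.19, 9.49, 9.48, 9.65 and 9.05, and liver metastases 9.50, 9.49 and 9.69. Normal islets were lowest, and islet tumors lay wholly above them, while the lowest met-like primary fell among the normal islets. Me1 was 1.40-fold higher in islet tumors (0.48 ± 0.12, limma adjusted p = 0.00466) and 1.32-fold higher in met-like primaries (0.40 ± 0.12, adjusted p = 0.0109) than in normal islets. Both calls were lost without Normal2006 (adjusted p = 0.0511 and 0.0962), the lowest array of all 22. A second Me1 probe set ordered the 6 group means the same way, from 8.85 in normal islets to 9.58 in liver metastases.

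**Figure D4:**
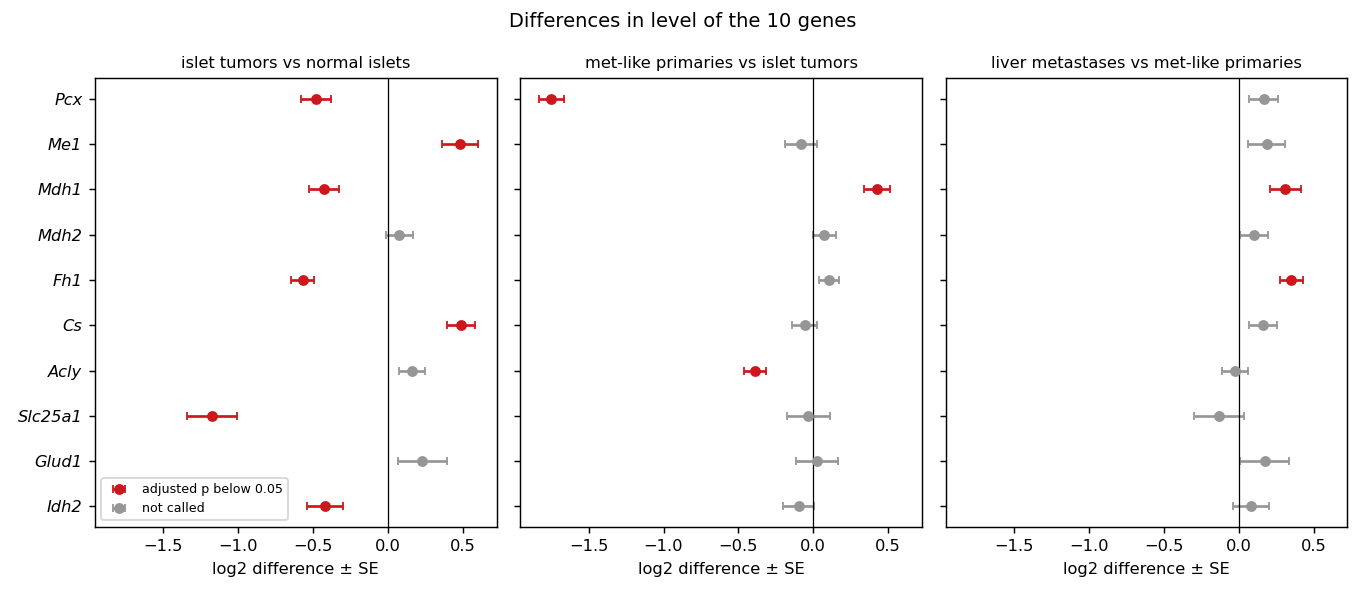
Log2 difference ± SE of each of the 10 genes in 3 comparisons from the limma fit, red where the adjusted p was below 0.05. Between islet tumors and normal islets 7 genes were called, and between met-like primaries and islet tumors 3 (Pcx at -1.75, Mdh1 at 0.43 and Acly at -0.39). Between liver metastases and met-like primaries 2 were called.

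Normal2006 stood apart within its group for several of the 10 genes: it was the lowest normal islet array for Pcx, Me1, Cs, Acly and Glud1 and the highest for Mdh1, Mdh2, Fh1 and Slc25a1. The acinar marker mean was 12.02 in Normal2006, 11.48 in NormalI-93 and 8.81 in Normal2007, so that Normal2007 lay farthest from the others in that list. With the acinar mean of each array as a covariate, all 7 calls between islet tumors and normal islets held, and of the 7 between met-like primaries and normal islets the call of Acly was lost at a difference of -0.19 (adjusted p = 0.0809).

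Neighbouring genes of the same pathways were read from 4 lists, and counts are of members measured. In the list of citrate cycle and pyruvate dehydrogenase genes (25 of 26 measured), 14 were lower and 1 higher in islet tumors than in normal islets, where 16.1% and 13% of all genes were, with a median of -0.25 against -0.01 over all genes. The strongest call was Pdk4, a kinase that switches off pyruvate dehydrogenase (-2.34 ± 0.15, adjusted p = 4.87e-10), followed by its relative Pdk2 (-0.74 ± 0.08, adjusted p = 4.99e-07) and the opposing phosphatase Pdp2 (-0.60 ± 0.08, adjusted p = 3.74e-06). The lower genes included 3 subunits of succinyl-CoA ligase (Suclg1, Suclg2 and Sucla2) and 3 of succinate dehydrogenase (Sdha, Sdhc and Sdhd), at -0.60 to -0.32 (named after their values were seen). The remaining succinate dehydrogenase subunit of the list, Sdhb, stood at 8.85 in islet tumors and 8.94 in normal islets. The gene that was higher was Idh3a (0.49 ± 0.10). Fh1, which follows succinate dehydrogenase in the cycle, was lower in the same comparison.

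Between met-like primaries and islet tumors the same list had 5 higher and 2 lower of 25, a share near the 26.5% of all genes called, with a median of 0.09. The phosphatase Pdp1 was higher (0.72 ± 0.09, adjusted p = 1.19e-06), as were Pdk4 (0.78 ± 0.13, with overlapping arrays) and Dlat, the acetyltransferase subunit of pyruvate dehydrogenase (0.38 ± 0.06). Against normal islets, where 42.8% of all genes were called, met-like primaries had 3 higher and 12 lower, led by Pdk4 (-1.56 ± 0.15), Idh3a (0.82 ± 0.10) and Pdp2 (-0.62 ± 0.08).

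The list of pyruvate, malate and citrate shuttle genes (16 of 17 measured) also holds pyruvate kinase, lactate dehydrogenase subunits and the acylcarnitine carrier Slc25a20. It had 2 higher and 6 lower between islet tumors and normal islets, against 29% of all genes. Slc16a1, a carrier of lactate and pyruvate across the plasma membrane that mature beta cells are known to keep very low, was higher (1.12 ± 0.14, adjusted p = 3.55e-06), as was the dicarboxylate carrier Slc25a10 (0.83 ± 0.10). Ldhb, a lactate dehydrogenase subunit, was lower (-0.88 ± 0.14). Between met-like primaries and islet tumors 6 were higher and 2 lower, against 26.5% of all genes, with a median of 0.17 against -0.02 over all genes. Slc16a1 was higher again, 3.55-fold (1.83 ± 0.12, adjusted p = 5.10e-10). Me3, a mitochondrial malic enzyme, was 3.11-fold higher (1.64 ± 0.12, adjusted p = 1.30e-09), whereas the cytosolic Me1 differed by -0.080 ± 0.11. The pyruvate kinase gene Pkm was higher too (0.59 ± 0.08). In islet tumors Slc16a1 stood at 6.97 and Me3 at 6.60, both below the median of every array. Against normal islets, 7 of 16 were higher and 4 lower in met-like primaries, against 42.8% of all genes, led by Slc16a1 (2.95 ± 0.14), Ldhb (-1.58 ± 0.14) and Me3 (1.25 ± 0.14).

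**Figure D5:**
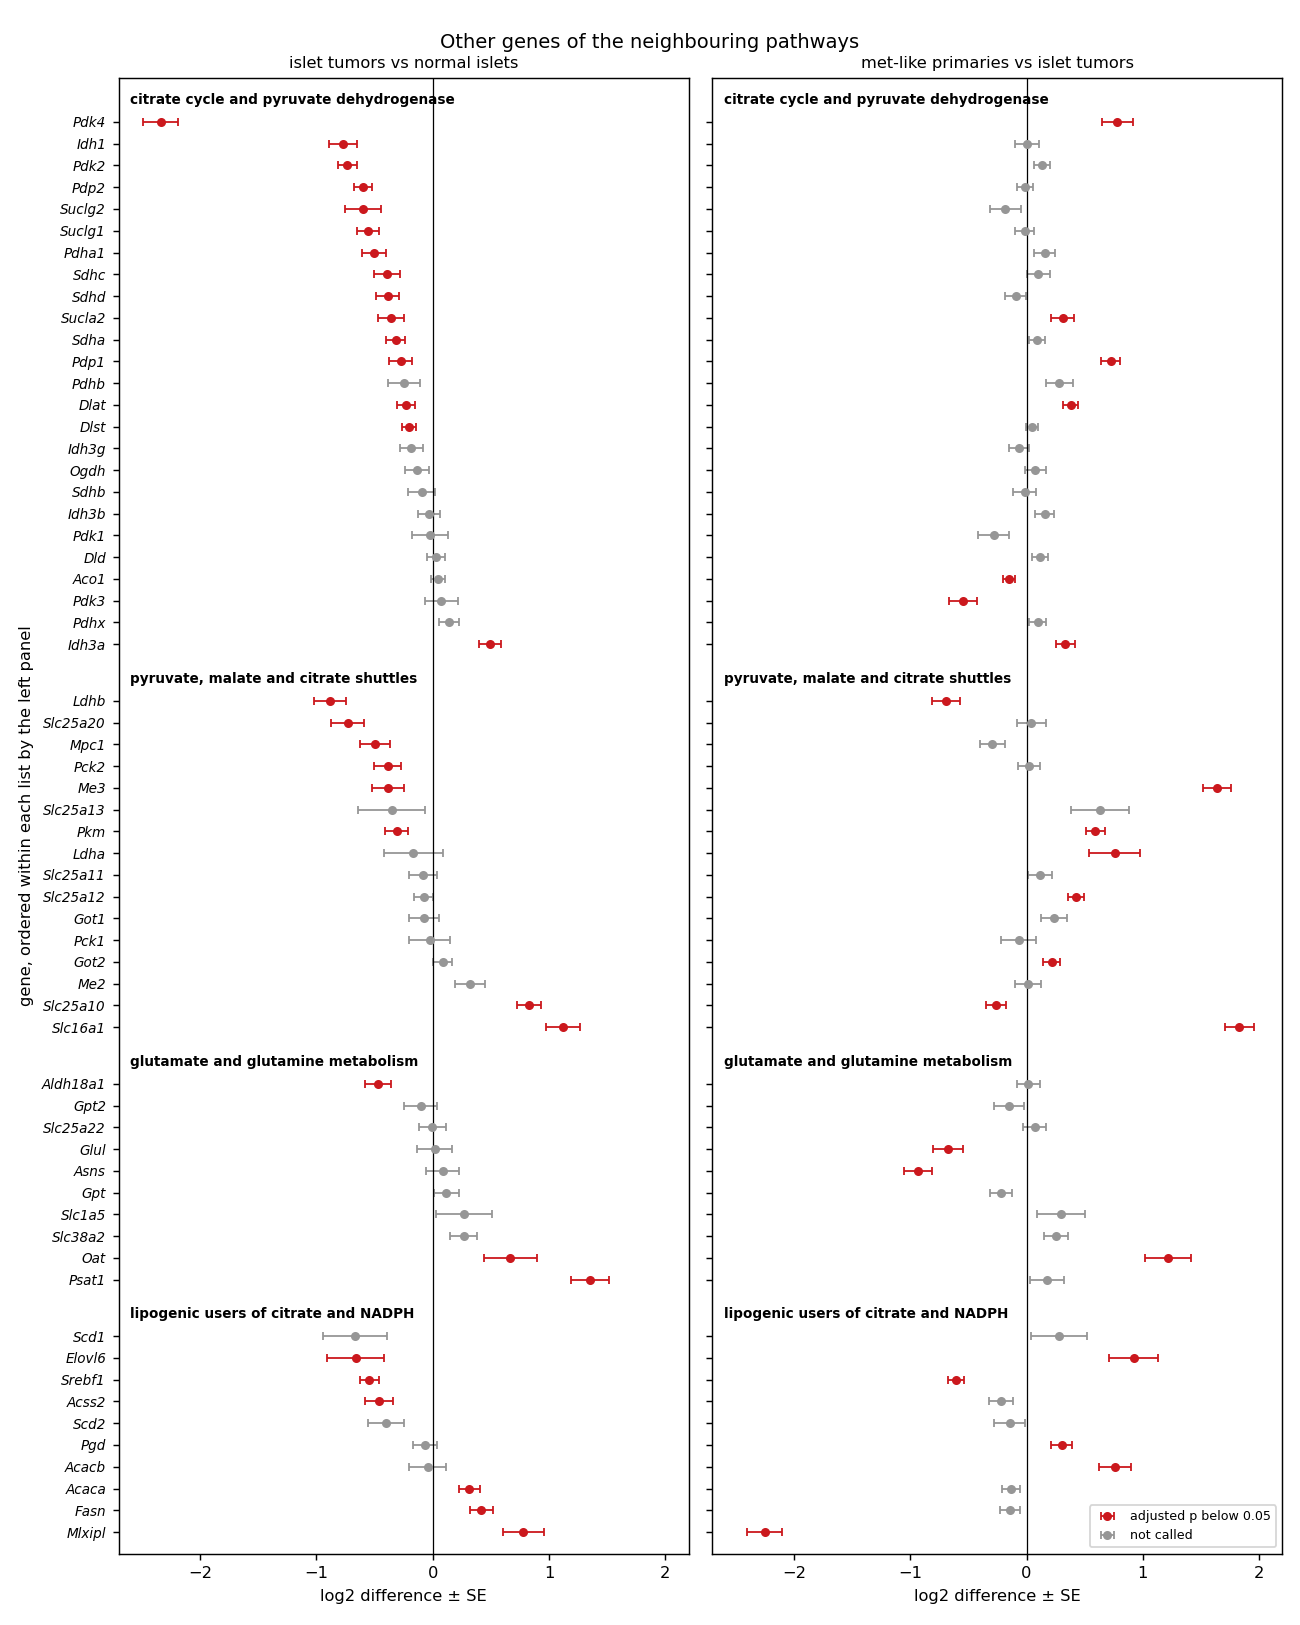
Log2 difference ± SE of every measured gene of the 4 pathway lists, with islet tumors against normal islets on the left and met-like primaries against islet tumors on the right, red where the adjusted p was below 0.05. Both panels use the same 5 islet tumors, so a low value on the left can go with a high value on the right for that reason alone. Pdk4 (-2.34) is lowest on the left, and Slc16a1 (1.83) and Me3 (1.64) are highest and Mlxipl (-2.25) lowest on the right.

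Genes of glutamate and glutamine metabolism (10 of 12 measured), the surroundings of Glud1, had 2 higher and 1 lower between islet tumors and normal islets, a share near the 29% of all genes. Psat1, which draws an amino group from glutamate in serine synthesis, was higher (1.35 ± 0.17, adjusted p = 1.90e-06), and Aldh18a1, the first enzyme from glutamate to proline, was lower (-0.47 ± 0.11). Oat, ornithine aminotransferase, was called at 0.67 ± 0.23 (adjusted p = 0.0319), and the call was lost without Normal2006 (adjusted p = 0.125) and without 5 other single arrays (NormalI-93, Normal2007, I-9811-tumor, II-649-tumor and III-8017-tumor, 0.0549 to 0.0782). Between met-like primaries and islet tumors Oat was higher (1.22 ± 0.20), and asparagine synthetase Asns (-0.93 ± 0.12) and glutamine synthetase Glul (-0.67 ± 0.13, with overlapping arrays) were lower. Against normal islets 3 were higher and 3 lower in met-like primaries, where 19.5% and 23.3% of all genes were, led by Psat1 (1.53 ± 0.17), Oat (1.88 ± 0.23) and Asns (-0.85 ± 0.14).

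The lipogenic list (10 of 11 measured) holds enzymes of fatty acid synthesis, but also regulators, the acetate enzyme Acss2 and the NADPH maker Pgd. It had 3 higher and 3 lower between islet tumors and normal islets, where 13% and 16.1% of all genes were. The regulator Mlxipl, which responds to glucose (0.78 ± 0.17), and fatty acid synthase Fasn (0.42 ± 0.10) were higher, and the sterol-responsive regulator Srebf1 was lower (-0.55 ± 0.08). Between met-like primaries and islet tumors, where Acly was lower, Mlxipl was 4.76-fold lower (-2.25 ± 0.15, adjusted p = 3.61e-10) and Srebf1 lower as well (-0.60 ± 0.07), whereas acetyl-CoA carboxylase 2 (Acacb) was higher (0.76 ± 0.14). The list as a whole had 3 higher and 2 lower there, where 12.3% and 14.2% of all genes were. Against normal islets 2 were higher and 4 lower in met-like primaries, against 42.8% of all genes, led by Srebf1 (-1.15 ± 0.08), Mlxipl (-1.47 ± 0.17) and the acetate-activating enzyme Acss2 (-0.68 ± 0.12).

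In the earlier steps, between hyperplastic and normal islets, 8.64% of all genes were called. There the citrate cycle list had 3 lower of 25 and the shuttle list 2 higher and 2 lower of 16. The glutamate list had 1 higher of 10 and the lipogenic list none of 10 by limma. In the lipogenic list 2 of 10 had an unadjusted limma p below 0.05, as did at least 4093 of all 19938 genes. The citrate cycle genes were Pdp2 (-0.40 ± 0.09), Pdk4 (-0.71 ± 0.17) and Pdk2 (-0.37 ± 0.09). Slc16a1 (0.82 ± 0.16) and Slc25a10 (0.48 ± 0.11) were already higher, Mpc1, a subunit of the mitochondrial pyruvate carrier, was lower (-0.53 ± 0.14), as was Ldhb (-0.52 ± 0.15, named after its value was seen), and Psat1 was higher (0.73 ± 0.19). The call of Ldhb (limma adjusted p = 0.0363) was not refitted with arrays left out. Without Normal2006 the difference in Mpc1 was -0.33 (adjusted p = 0.164) and in Psat1 0.68 (adjusted p = 0.0665). Calls of Pdk4, Pdk2, Slc25a10 and again of Mpc1 and Psat1 were lost without 1 or more other arrays, Hyperplastic2006 for Pdk4, Slc25a10 and Psat1, Hyperplastic2007 for Pdk2 and Mpc1, HyperplasticI-93 for Mpc1 and Normal2007 for Pdk4 and Psat1 (adjusted p = 0.0504 to 0.127). No gene of the 4 lists was called by limma between angiogenic and hyperplastic islets, and 5 of 61 had an unadjusted p below 0.05. At least 2618 of all 19938 genes had such a p in that comparison.

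Between islet tumors and angiogenic islets Pdk4 (-1.45 ± 0.15) and the desaturase Scd1 (-1.99 ± 0.28) were lower. Idh1, Pck1, Ldha and Slc25a20 were also called lower (-0.55, -0.75, -0.88 and -0.47), but each of these calls depended on single arrays. Idh1 was lost without AngiogenicI-93 (adjusted p = 0.0522), and Pck1 without Angiogenic2006 (0.0519) or Angiogenic2007 (0.0732). Ldha was lost without AngiogenicI-93 (0.194), Angiogenic2006 (0.113) or any of the tumors I-9811, II-649 and II-6415 (0.0545 to 0.0646). Slc25a20 was lost without any of the 3 angiogenic islet arrays (0.0698 to 0.248) or of the same 3 tumors (0.0668 to 0.0900). With the hepatocyte mean as a covariate all 4 calls were lost: Pck1 differed by 0.15 (adjusted p = 0.666), whereas Idh1 (-0.54, 0.161), Ldha (-1.17, 0.143) and Slc25a20 (-0.73, 0.0866) differed by about as much or more. As stated for Fh1, that fit can barely separate hepatocyte content from group.

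In liver metastases against met-like primaries, the citrate cycle list had 7 higher and 1 lower of 25, against 15.7% of all genes, beside the rise of Fh1. It was led by Idh1, the cytosolic NADP-dependent isocitrate dehydrogenase (0.96 ± 0.12), by Dld, the dehydrogenase subunit that several 2-oxoacid dehydrogenases share (0.38 ± 0.08), and by Dlst of 2-oxoglutarate dehydrogenase (0.26 ± 0.06). Pck1, the cytosolic enzyme that starts gluconeogenesis from oxaloacetate, was 4.72-fold higher (2.24 ± 0.17, adjusted p = 6.97e-09), and Slc25a10 differed by 0.34 ± 0.10, a call lost without any 1 of 5 single arrays (I-9812-MLP, II-648-MLP, II-6413-MLP, I-9820-Met and I-9822-Met, adjusted p = 0.0502 to 0.110). Oat (1.10 ± 0.23), Gpt2 (0.60 ± 0.15), Acacb (1.16 ± 0.16) and Scd1 (1.51 ± 0.28) were higher, and Aldh18a1 (-0.70 ± 0.11) and Scd2 (-0.79 ± 0.16) lower. The call of Gpt2 was lost without I-9820-Met (adjusted p = 0.0683).

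Hepatocyte markers rose beside these genes: 15 of 16 were higher in liver metastases, with a median difference of 3.59, and the list's array means were 6.86 to 7.28 in met-like primaries and 10.32 to 10.85 in liver metastases. Albumin (Alb) stood at 9.39 ± 1.61 (SD, n = 5) and 13.04 ± 0.14 (SD, n = 3). With the hepatocyte mean of each array as a covariate, no named gene stayed called, in a fit that called 14 of all genes. As these means did not overlap between the 2 groups, the fit can barely separate hepatocyte content from group. Neither a kept nor a lost difference therefore tells the part of hepatocyte RNA. Differences that stayed about as large or grew, with wider errors, were those of Fh1 (0.39 ± 0.27, against an SE of 0.08 without the covariate, adjusted p = 0.760), Idh1 (0.95 ± 0.43), Oat (1.06 ± 0.80), Gpt2 (0.62 ± 0.51), Scd1 (1.83 ± 0.97), Scd2 (-1.29 ± 0.54), Aldh18a1 (-0.86 ± 0.39), Dld (0.52 ± 0.27) and Dlst (0.46 ± 0.21). Mdh1 (0.25 ± 0.36) and Acacb (0.86 ± 0.55) were somewhat smaller, while Pck1 (0.077 ± 0.35) and Slc25a10 (-0.083 ± 0.34) lay near 0. Acinar markers were lower in the metastases (5 of 9, median -1.90), and their part was tested only as a covariate, with which Fh1 stayed called, while Mdh1 (0.29, adjusted p = 0.179), Slc25a10 (0.38, 0.0598) and Gpt2 (0.58, 0.0511) kept about their size and lost their calls. All 3 metastases carry the title prefix I, and within that prefix there is 1 met-like primary, against which Fh1 differed by 0.30 and Mdh1 by 0.33, values with no replicate on 1 side.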

How the data were processed

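The deposited series table held log2 intensities of 35511 probe sets on 22 arrays. Per the series text, the authors made it with aroma.affymetrix, and per the labels RNA was extracted with TRIzol. Neither its version nor the background correction, normalization or genome build is given in the sources used here. A normalization between arrays, if one was applied, can shrink differences that many genes share.

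Of the probe sets, 21789 carried 1 gene symbol, 1621 several and 12101 were not in the annotation table used. The probe set with the highest mean stood for each of 19938 genes, and 999 genes had several. All 22 arrays entered 1 limma (3.58.1, R 4.3.3) fit of 6 group means with 16 residual degrees of freedom and no covariate, and 7 comparisons were read from it with Benjamini-Hochberg adjustment over all genes. The fit was tested on simulated data. Balances of paired genes were tested by two-sided exact permutation (scipy 1.17.1).

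The 10 genes, the pathway and marker lists and the tests were chosen with earlier results of these data known. Of each pathway list, the up to 3 genes with the smallest adjusted p among those called in a comparison are named. For the genes with group means spanning over 1 log2, the 3 genes with the highest r are named, leaving out predicted genes, unnamed reading frames, olfactory receptors and small RNAs. Some listed genes are not reported here.

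Islet titles carry the codes I-93, 2006 and 2007, whose meaning is not given. Arrays of the same code deviated together between normal and hyperplastic islets (r = 0.20 to 0.45 over genes, against -0.37 to -0.06 for other pairs) and between hyperplastic and angiogenic islets (r = 0.35 to 0.48, against -0.39 to -0.06). The alternatives were a fit of only the arrays compared, quantile normalization, median centring, leaving out dim genes, the mean of all probe sets, an acinar or hepatocyte covariate, the code or prefix as a replicate block, and leaving out each array.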

Additional observations from a re-analysis of the deposited data

How the results depend on the processing

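Of the called values of the 10 genes, 0 of 346 reversed under an alternative and 33 of 346 were no longer called. The calls between angiogenic and hyperplastic islets numbered 0 under each alternative. The single call between hyperplastic and normal islets became 2 under median centring (Fh1 joined, -0.30, adjusted p = 0.0242) and 0 to 2 when 1 array was left out. The single call between islet tumors and angiogenic islets (Fh1) became 0 in a fit of only the arrays compared, with quantile normalization (adjusted p = 0.0502), with median centring (0.0507) and with the hepatocyte covariate, and 0 to 1 when 1 array was left out. The 2 calls in liver metastases became 1 in a fit of only the arrays compared, with quantile normalization, with the acinar covariate and with the replicate block, 0 with the hepatocyte covariate, and 1 to 2 when 1 array was left out. Counts of either primary tumor class against normal islets ran from 6 to 7 and between the tumor classes from 3 to 4 when 1 array was left out. The cause was not tested. With quantile normalization Acly was also called between islet tumors and normal islets (0.30, adjusted p = 0.0399) and Mdh2 between met-like primaries and normal islets (0.27, adjusted p = 0.0185), and Acly was lost in the latter (adjusted p = 0.265).

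The replicate block left 1 call between hyperplastic and normal islets, 0 between angiogenic and hyperplastic islets and 3 between the tumor classes. It changed no call of the 10 genes except Mdh1 in liver metastases. No paired analysis was possible for islet tumors against either islet class or for met-like primaries against normal islets because islets and tumors share no code.

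Values that turned sign were not called in the 10 genes. Between islet tumors and angiogenic islets, quantile normalization, median centring and the hepatocyte covariate gave 0.015, 0.016 and 0.044 for Pcx, 0.093, 0.031 and 0.23 for Acly and 0.034, 0.020 and 0.028 for Idh2. Acly gave 0.014 between angiogenic and hyperplastic islets with quantile normalization, and 0.034 with it and 0.0068 with median centring in liver metastases. Mdh1 between met-like primaries and normal islets gave 0.099 with quantile normalization and 0.0069 with the acinar covariate. In liver metastases the hepatocyte covariate gave -0.0056 for Pcx, -0.18 for Mdh2 and -0.046 for Idh2, and the replicate block gave 0.14 for Slc25a1. Leaving out 1 array gave, between hyperplastic and normal islets, -0.020 to 0.12 for Mdh2, and between angiogenic and hyperplastic islets -0.098 to 0.047 for Mdh2, -0.083 to 0.025 for Fh1 and -0.054 to 0.045 for Acly. Between islet tumors and angiogenic islets it gave -0.097 to 0.053 for Pcx, -0.067 to 0.033 for Acly, -0.29 to 0.013 for Slc25a1 and -0.11 to 0.097 for Idh2. Between the tumor classes it gave -0.15 to 0.0011 for Me1, -0.20 to 0.11 for Slc25a1 and -0.089 to 0.14 for Glud1. It also gave -0.088 to 0.092 for Mdh1 between met-like primaries and normal islets and -0.063 to 0.054 for Acly in liver metastases. Pcx minus Pdha1 between islet tumors and normal islets gave -0.035 to 0.082, and Mdh1 minus Mdh2 between angiogenic and hyperplastic islets -0.067 to 0.025.

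For the 60 named results of pathway genes and for the paired balances, alternatives were chosen after seeing the data. Of these pathway results, 485 of 510 kept direction and call under settings other than leaving out an array and 454 of 490 when 1 array was left out. The hepatocyte covariate turned Pck1 to 0.15 between islet tumors and angiogenic islets and Slc25a10 to -0.083 in liver metastases, where it ended the call of every named pathway gene (adjusted p = 0.566 to 0.979), most of them at differences about as large with wider errors. In both comparisons the hepatocyte means of the groups did not overlap, so hepatocyte content and group can barely be separated. The replicate block ended the call of Oat there (0.82, adjusted p = 0.0651). The number of arrays, 3 to 5 per group, limits the precision throughout.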
